A study of Mus musculus with 18 samples.

Results

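The genes described here encode the major histocompatibility complex (MHC) of the mouse and the proteins that load it and switch it on. They were taken by symbol: every gene of the deposited count table whose symbol begins with H2-, together with B2m, Cd74, Ciita, Tap1, Tap2, Tapbp, Nlrc5 and Cd86, kept where the counts summed to at least 20 over all 18 libraries. Of 42 genes that matched, 35 met that minimum, out of 30583 genes in the table; H2-Q1 had the fewest counts inside the minimum, with 37, and H2-Bl and H2-Q2 the most outside it, with 6 each. They fell into 22 class I genes, 12 class II genes and 1 gene of neither class, H2-Ke6, a hydroxysteroid dehydrogenase gene that carries the prefix because of where it lies. Cd86, a co-stimulatory ligand, was listed with class II.

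MHC molecules carry peptides to the cell surface, where T cells read them. Class I molecules pair a heavy chain with beta-2 microglobulin, receive peptides pumped into the endoplasmic reticulum by the TAP transporter, and are made by almost every nucleated cell, with NLRC5 as their transactivator. Class II molecules pair an alpha and a beta chain around the invariant chain CD74, exchange its remnant for peptide with the help of DM, and are made mainly by macrophages, dendritic cells and B cells under the control of CIITA; in the heart, resident macrophages and dendritic cells are the usual source.

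Hearts came from 18 male C57BL/6JR mice aged 12 weeks, in 6 groups of 3, with 1 library per mouse. In 5 groups the left anterior descending coronary artery was tied to cause a myocardial infarction, and tissue was taken 72 h, 24 h, 6 h, 1 h or only 10 min later; sham mice (0 h) were operated on in the same way, with a suture passed and left untied. All 18 mice were anaesthetized with sodium pentobarbital, all carried the same strain background, and the tied groups had no operated control of their own time, so time after surgery and time after ligation cannot be told apart. RNA came from the myocardium of the infarcted left ventricle and was selected for poly(A).

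The labels also give cardiomyocytes as the cell type. Cardiomyocyte markers summed to 57835 ± 2640.5 depth-scaled counts (CPM) in sham (SD, n = 3), but markers of fibroblasts (2004 ± 119), endothelium (1009.6 ± 52.7) and macrophages (145 ± 6.47) were present in the same libraries, so the values below are read as those of whole tissue. In such bulk tissue, fewer cells of a type and less RNA per cell cannot be told apart. Library totals ran from 18199172 to 25062351 counts. Unless said otherwise, levels are CPM, that is counts as a share of the library total after its scaling by the trimmed mean of M-values (TMM), and differences are log2 fold changes ± standard error from edgeR's quasi-likelihood test, with p-values adjusted by Benjamini and Hochberg over the 16311 genes tested and called where under 0.05. Every comparison with sham used the same 3 sham libraries. Each library is 1 mouse, and the p-values measure the spread between these mice.

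Promoter sequence is shown for 3 class I and 2 class II members because the 2 transactivators among the members, Nlrc5 and Ciita, are known to act through short boxes just upstream of these genes. RefSeq windows on GRCm38.p6 were matched for 23 of the 35 members and searched on both strands from 250 bases before to 50 bases after the start site. The motifs were the Y box core CCAAT, an X box written as CCNNG, then NN, then ACNGATG, a GAS element TTCNNNGAA, an interferon regulatory factor pair (GAAA, then NN, then GAAA again) and the kappa B motif. Each line gives up to 200 bases before the start site, 5′ to 3′ on the gene's own strand, with every match in capitals (a match on the other strand shows its complement, so CCAAT then reads ATTGG).
H2-Aa (chr17:34287824-34288023, minus strand): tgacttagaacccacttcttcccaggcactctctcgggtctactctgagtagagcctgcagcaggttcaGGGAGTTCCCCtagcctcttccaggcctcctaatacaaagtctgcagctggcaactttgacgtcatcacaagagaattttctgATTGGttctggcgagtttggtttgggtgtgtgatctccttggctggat
H2-Eb1 (chr17:34305667-34305866, plus strand): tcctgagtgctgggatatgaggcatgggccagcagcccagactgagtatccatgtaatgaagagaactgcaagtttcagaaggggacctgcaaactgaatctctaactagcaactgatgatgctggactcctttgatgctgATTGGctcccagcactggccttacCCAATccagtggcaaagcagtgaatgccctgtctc
H2-K1 (chr17:34000348-34000547, minus strand): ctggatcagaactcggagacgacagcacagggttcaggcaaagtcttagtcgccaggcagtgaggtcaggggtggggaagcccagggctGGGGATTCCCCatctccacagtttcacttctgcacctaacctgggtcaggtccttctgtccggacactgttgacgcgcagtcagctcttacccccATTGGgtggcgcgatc
H2-Q4 (chr17:35379417-35379616, plus strand): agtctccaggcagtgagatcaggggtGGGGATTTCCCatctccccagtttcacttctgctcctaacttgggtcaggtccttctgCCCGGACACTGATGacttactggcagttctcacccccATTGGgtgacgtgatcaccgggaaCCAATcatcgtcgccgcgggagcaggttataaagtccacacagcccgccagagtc
B2m (chr2:122147487-122147685, plus strand): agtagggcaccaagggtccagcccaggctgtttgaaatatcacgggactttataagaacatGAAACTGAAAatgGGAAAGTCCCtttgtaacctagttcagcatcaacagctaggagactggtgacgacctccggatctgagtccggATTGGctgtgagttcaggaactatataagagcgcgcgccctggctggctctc

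The Y box core was found in 12 of 14 class I genes with a window and in 8 of 8 class II genes, against 37.41% of all 32851 RefSeq windows of the same length. The X box as written matched 5 class I genes (H2-D1, H2-Q4, H2-Q6, H2-Q7 and H2-M3) and 1 class II gene, H2-DMb1, against 0.29% of all windows. Kappa B matched 8 class I genes and H2-Aa (4.51% of all windows), the interferon regulatory factor pair matched B2m, H2-T23 and H2-T22 (3.44%), and GAS matched H2-M3 and H2-DMb2 (8.3%). In the 5 sequences shown, no match of 1 motif overlapped a match of another, though kappa B matches on opposite strands overlapped each other; in H2-M3 a kappa B match overlapped a Y box core. H2-Q4 shows kappa B, the X box and 2 Y box cores in a row. These are matches of letters, and a window without one says only that these letters are not in it. Windows were not matched for H2-K2, H2-M6-ps, H2-Q1, H2-Q5, H2-T10, H2-T24, Nlrc5, Tap2, Cd74, Cd86, Ciita and H2-Ab1.

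Over the time course, 0 of 12 class II genes were called in the first hour, 3 of their chain genes (H2-Aa, H2-Ab1 and H2-Eb1) were lower at 6 h, and all 12 were higher than sham at 72 h; the classical class I genes were higher at 72 h, with no call against sham before then. Of the 35 members, 32 passed edgeR's filter on low counts, 19 of 22 in class I, 12 of 12 in class II and H2-Ke6. At 10 min 0 of 32 were called (0.0736% of all genes tested; 3 at an unadjusted p under 0.05), and at 1 h again 0 (0.294% of all genes; 4 at an unadjusted p under 0.05); DESeq2 also called 0 at both times. The missing calls do not show equal levels: at 10 min all 12 class II genes had a positive log2 change. So did 5 of 19 class I genes and 8388 of all 16311 genes. The 12 genes share their libraries, and the summed class II level at 10 min was 208, 241 and 315 CPM against 231 to 249 in sham. Only replicate 3 of that sum lay above sham. At 6 h 9 members were called, 2 higher and 7 lower (1 and 8 on plain library totals), beside 28.4% of all genes (16.3% higher). The share of members lower, 7 of 32, stood beside 12.2% of all genes lower at that time.

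At 24 h 12 members were called, 9 higher and 3 lower (11 and 1 on plain library totals), where 43.8% of all genes were called (23.7% higher and 20.2% lower); 7 of the 9 higher calls were class II genes. At 72 h 27 members were called, 23 higher and 4 lower, beside 66.4% of all genes (34.2% higher and 32.2% lower). The median log2 fold change of the 12 class II genes was 0.15 at 10 min, 0.03 at 1 h, -0.11 at 6 h, 0.98 at 24 h and 2.01 at 72 h. Over the 19 class I genes it was -0.14, -0.04, -0.12, -0.07 and 0.70, and over all genes tested it was 0.03 at 72 h. Scaling to plain library totals in place of TMM moved the median of all genes at 72 h to 0.61, and with it 23 members were higher and 0 lower, so the 4 lower calls at 72 h hold relative to the other genes of these libraries only. With the 2 class II genes that were at the floor in sham (H2-Oa and H2-Eb2) set to their bounds, the class II median at 72 h was 1.83. At 24 h, treated in the same way but with 1 gene left out, it was 0.83 over 11 genes.

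**Figure D1:**
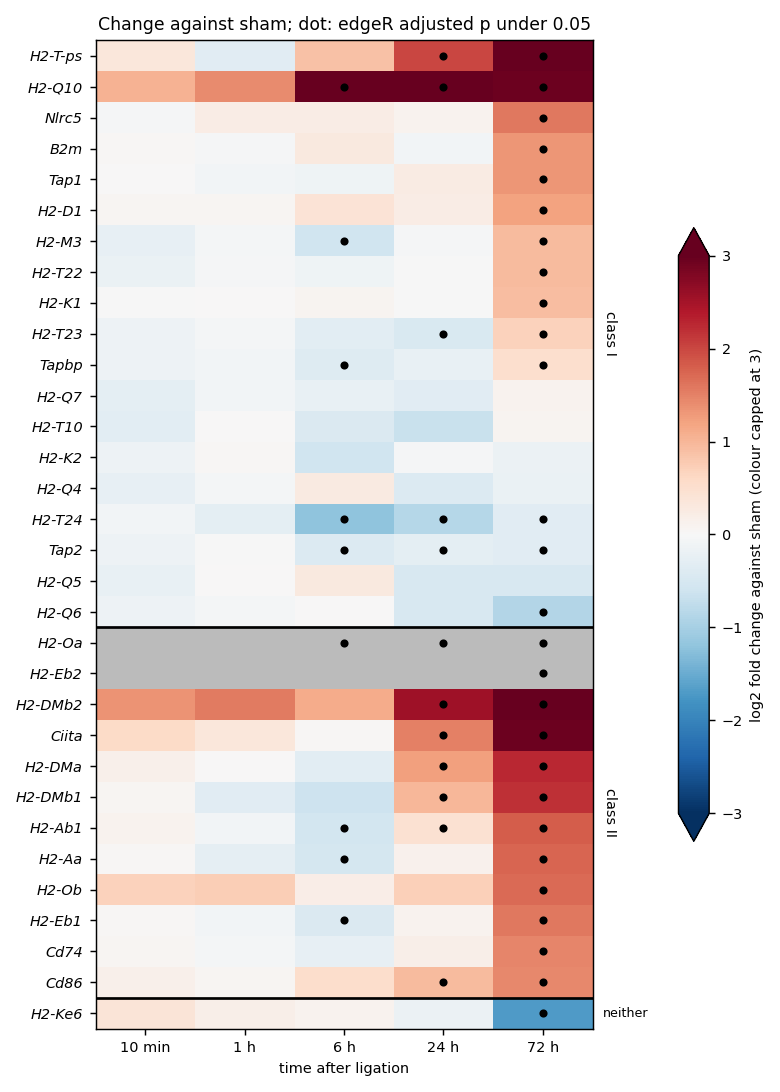
Colour gives the log2 fold change against sham of each of the 32 tested members at 5 times, by class, and a dot marks an edgeR adjusted p under 0.05; grey marks H2-Oa and H2-Eb2, whose sham libraries held at most 1 count. All 12 class II genes carry a dot at 72 h, none carries one at 10 min or 1 h, and the blue class I entries at 72 h are those of genes such as H2-Q6, H2-T24 and Tap2.

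H2-Aa (chr17:34282744-34287823), H2-Ab1 (chr17:34257689-34269419) and H2-Eb1 (chr17:34305867-34316674; GRCm38, GENCODE M21, as are the gene coordinates below) encode the class II chains themselves. H2-Aa, the alpha chain of the I-A molecule, read 32.5, 35.9 and 36.3 CPM in the sham libraries, 28.7, 34 and 44.8 at 10 min and 27, 29.5 and 30.1 at 1 h. H2-Aa then read 27.6, 24.3 and 21.4 at 6 h, 34.9, 45.6 and 33.7 at 24 h and 122, 105 and 127 at 72 h. The 1 h and 6 h libraries all lay below sham, those at 1 h without a call. The 24 h libraries overlapped sham, and the 72 h libraries lay above every other library. The change was -0.52 ± 0.15 at 6 h (edgeR adjusted p = 0.0138) and 1.76 ± 0.15 at 72 h (adjusted p = 8.59e-09), a rise of 3.38-fold.

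H2-Ab1, its beta chain, read 57.9, 66.2 and 58.7 CPM in sham, 48.6, 64.2 and 84.5 at 10 min and 52.5, 57.9 and 62.4 at 1 h. H2-Ab1 then read 48.5, 37 and 39 at 6 h, 72.4, 96.1 and 84.3 at 24 h and 234, 191 and 222 at 72 h. Its 6 h libraries lay below sham and its 24 h and 72 h libraries above, with no overlap. The log2 change was -0.55 ± 0.16 at 6 h, 0.47 ± 0.16 at 24 h and 1.82 ± 0.16 at 72 h, with edgeR adjusted p of 0.0162, 0.0243 and 2.48e-08. No H2-Ea gene, which would encode the alpha chain of the I-E molecule, was among the 42 genes that matched by symbol. Values of H2-Eb1, its beta chain gene, therefore speak for the transcript only. H2-Eb1 read 46.4, 46.4 and 47.4 CPM in sham, 41.1, 44.9 and 58.6 at 10 min and 44.3, 40.6 and 47.7 at 1 h. H2-Eb1 then read 39.9, 31.6 and 32.1 at 6 h, 45.3, 63.4 and 41 at 24 h and 149, 123 and 151 at 72 h. The 24 h libraries of H2-Eb1 overlapped sham, and those at 6 h and 72 h did not. The change of H2-Eb1 was -0.44 ± 0.15 at 6 h (edgeR adjusted p = 0.0408) and 1.59 ± 0.15 at 72 h (adjusted p = 5.49e-08).

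The 6 h calls of the chain genes did not hold without every library. The H2-Aa call was lost without 6 h replicate 3, and the H2-Ab1 call without sham replicate 2 or 6 h replicate 2 or 3. The H2-Eb1 call was lost without any one of the 3 sham libraries, 1 h replicate 1 or 6 h replicate 2 or 3, and with the replicate number as a block. The H2-Ab1 call at 24 h was lost without sham replicate 1 or 3, or 24 h replicate 2 or 3. All 3 genes kept their 72 h calls in every alternative fit.

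Cd74 encodes the invariant chain that holds the class II groove closed until peptide is loaded. It read 82.3, 84.2 and 93.5 CPM in sham, 77.5, 84.5 and 108 at 10 min and 82.3, 77.6 and 91.2 at 1 h. Cd74 then read 80.6, 65.9 and 71.6 at 6 h, 86, 113 and 95.1 at 24 h and 255, 214 and 244 at 72 h. The 6 h libraries lay just below sham without a call (-0.25 ± 0.13, edgeR adjusted p = 0.145), the 24 h libraries overlapped sham, and the 72 h libraries were 2.74-fold higher (1.46 ± 0.13, adjusted p = 1.66e-08).

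Ciita (chr16:10480059-10528418), the class II transactivator, was low in sham at 1.11, 1.4 and 1.15 CPM. All 3 libraries at 10 min (1.43, 1.85 and 2.12) lay above them without a call (edgeR adjusted p = 0.758), and those at 1 h (1.06, 1.3 and 2.33) and 6 h (1.79, 1.1 and 0.905) overlapped sham. It read 2.93, 3.5 and 3.97 CPM at 24 h and 9.75, 9.96 and 8.59 at 72 h, above all earlier libraries at both times. The rise was 2.83-fold at 24 h (1.5 ± 0.27, edgeR adjusted p = 3.21e-04) and 7.7-fold at 72 h (2.94 ± 0.27, adjusted p = 2.35e-08). Ciita was not called at 6 h (0.04 ± 0.3, adjusted p = 0.944), when H2-Aa, H2-Ab1 and H2-Eb1 were lower than sham. Its exons share 3.5% of their bases with the antisense gene Dexi, and use of strand in the counting is not given in the sources used here.

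**Figure D2:**
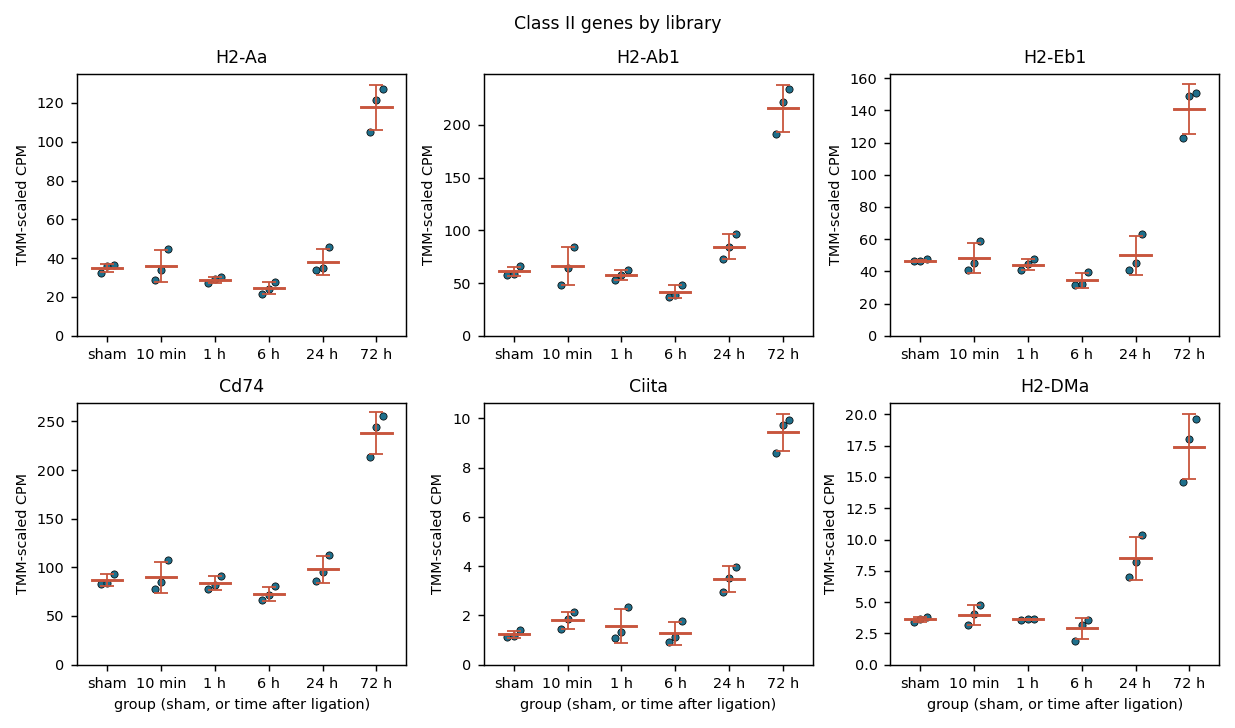
Each point is 1 library, lines and bars are the mean and SD of 3 libraries, and the y axes give TMM-scaled CPM for 6 class II genes in sham and at 5 times after ligation. H2-Aa, H2-Ab1 and H2-Eb1 sit below sham at 6 h, Ciita and H2-DMa are above sham by 24 h, and all 6 genes are highest at 72 h.

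The DM genes encode the exchange factor that frees the groove for peptide. H2-DMa read 3.64, 3.37 and 3.82 CPM in sham, 3.18, 4.03 and 4.75 at 10 min and 3.67, 3.55 and 3.61 at 1 h. H2-DMa then read 3.58, 3.16 and 1.92 at 6 h, 6.99, 8.17 and 10.4 at 24 h and 18, 14.6 and 19.7 at 72 h. H2-DMa was above sham from 24 h on. H2-DMb1 read 2.98, 4.15 and 4.26 CPM in sham, 2.68, 3.53 and 5.58 at 10 min and 2.08, 3.38 and 3.56 at 1 h. H2-DMb1 then read 2.62, 2.44 and 2.4 at 6 h, 5.74, 7.6 and 9.54 at 24 h and 18.1, 16.9 and 17.5 at 72 h. For both genes the 24 h and 72 h libraries lay above every sham library. The log2 change of H2-DMa was 1.23 ± 0.2 at 24 h and 2.27 ± 0.2 at 72 h (edgeR adjusted p = 1.4e-04 and 1.82e-08).

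H2-DMb1 changed by 1.00 ± 0.24 at 24 h and 2.2 ± 0.24 at 72 h (edgeR adjusted p = 0.00271 and 2.05e-07). Its neighbour H2-DMb2, a further beta chain gene of DM, had 0.354, 0.519 and 0.267 CPM in sham, 0.809, 0.63 and 1.51 at 10 min and 0.531, 1.54 and 1.34 at 1 h. H2-DMb2 then read 1.01, 0.909 and 0.533 at 6 h, 1.51, 2.62 and 2.47 at 24 h and 3.28, 3.23 and 2.8 at 72 h. Every group after ligation lay above sham without overlap, from 10 min on. The gap was narrow at 1 h and 6 h, where the lowest libraries held 11 and 10 counts against at most 10 in sham. The change was 2.56-fold at 10 min and 2.95-fold at 1 h without a call (edgeR adjusted p = 0.485 and 0.336; unadjusted p = 0.00821 and 0.00278). It was 5.79-fold at 24 h and 8.16-fold at 72 h (edgeR adjusted p = 1.45e-04 and 3.1e-06). The longest transcripts of the DMb pair share 13.7% of the 100-base words of H2-DMb1, so reads there could be counted to either gene. The exons of H2-DMa share 10.4% of their bases with the antisense gene Brd2, which held 57789 counts over the 18 libraries against 3078 for H2-DMa.

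H2-Oa and H2-Ob encode DO, the inhibitor of DM, which is best known from B cells. H2-Oa had 0, 0 and 0 counts in the sham libraries and 33, 26 and 35 at 72 h, where its level of 0.982 ± 0.169 CPM (SD, n = 3) was at least 6.72-fold higher than a floor of 3 counts per sham library (edgeR adjusted p = 1.38e-05). Between these times it had 2, 4 and 2 counts at 10 min and 2, 0 and 2 at 1 h, without a call. At 24 h it read 0.216, 0.46 and 0.103 CPM, at least 1.78-fold above that floor as a mean (adjusted p = 0.00342). Without 24 h replicate 2 that bound was 1.09-fold, and replicate 3 lay below the floor. It was also called at 6 h (adjusted p = 0.0453), with libraries at 0.119, 0.239 and 0 CPM, a mean under the floor; that call was lost in 17 of 25 alternative fits, among them those without any one of the sham or 10 min libraries, 1 h replicate 1 or 3, 6 h replicate 1 or 2, or any one of the 72 h libraries.

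H2-Ob read 1.01, 0.933 and 0.489 CPM in sham, 1.37, 1.13 and 1.45 at 10 min and 2.93, 2.31 and 2.61 at 72 h (1.7 ± 0.36, edgeR adjusted p = 4.58e-04), with no call in between, although its 10 min libraries also lay above sham. H2-Eb2, a further beta chain gene, had 0, 1 and 0 counts in sham, 2, 1 and 4 at 10 min, 2, 3 and 2 at 1 h and 0, 1 and 1 at 6 h. H2-Eb2 then had 3, 2 and 1 counts at 24 h and 12, 13 and 25 at 72 h, and only the last group was called (adjusted p = 7.86e-05). The 72 h libraries of both genes lay above every other library. The 6 B cell markers summed to 2.39 to 3.49 CPM in sham, 6.1 to 7.09 at 10 min and 6.82 to 8.04 at 72 h. At 72 h 3 of 6 were called higher, beside 34.2% of all genes, and none of them was at 0 in sham. The part of B cells in the values of H2-Oa, H2-Ob, H2-Eb2 and H2-DMb2 was not tested.

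Cd86 encodes a ligand that gives T cells a co-stimulatory signal beside the MHC. It read 2.73, 2.49 and 2.71 CPM in sham, 2.93, 2.48 and 3.52 at 10 min and 3.14, 2.72 and 2.33 at 1 h. Cd86 then read 5.36, 3.3 and 2.88 at 6 h, 3.88, 3.96 and 7.63 at 24 h and 6.66, 7.28 and 7.54 at 72 h. Every library from 6 h on lay above sham, with 1 high library each at 6 h and 24 h. The log2 change was 0.95 ± 0.26 at 24 h (edgeR adjusted p = 0.00686) and 1.43 ± 0.26 at 72 h (adjusted p = 7.86e-05). Without 24 h replicate 3 the 24 h change was 0.57 and was no longer called.

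H2-K1 (chr17:33996017-34000347) and H2-D1 (chr17:35262730-35267499) encode the classical class I heavy chains of this strain, and B2m (chr2:122147686-122153083) their shared light chain. H2-K1 read 229.9, 279.8 and 255 CPM in sham, 239, 230.03 and 285 at 10 min and 224, 251 and 297 at 1 h. H2-K1 then read 310.3, 205 and 299 at 6 h, 221, 236 and 299 at 24 h and 515, 443 and 504 at 72 h. The 72 h libraries of H2-K1 lay above all others. H2-D1 read 263, 311 and 289 CPM in sham, 275, 293 and 325 at 10 min and 272, 284 and 335 at 1 h. H2-D1 then read 456, 296 and 387 at 6 h, 288, 301 and 417 at 24 h and 693, 605 and 704 at 72 h. H2-D1 was likewise highest at 72 h in all 3 libraries. B2m read 215, 255 and 244 CPM in sham, 247, 213 and 268 at 10 min and 227, 230.1 and 239 at 1 h. B2m then read 353, 232 and 296 at 6 h, 210.4, 215 and 253 at 24 h and 613, 574 and 601 at 72 h. In all 3 genes the groups up to 24 h overlapped sham, the 6 h libraries were spread widely, and the 72 h libraries lay above every other library.

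At 72 h the log2 change was 0.93 ± 0.16 for H2-K1 (edgeR adjusted p = 3.64e-05), 1.21 ± 0.16 for H2-D1 (adjusted p = 1.66e-06) and 1.32 ± 0.13 for B2m (adjusted p = 6.74e-08). At 6 h none of them was called, with 0.4 ± 0.15 for H2-D1 (edgeR adjusted p = 0.0588) and 0.3 ± 0.13 for B2m (adjusted p = 0.0878). The 6 h library with the highest B2m and H2-D1 values, replicate 1, also held 151 CPM of atrial markers, where every other library held 1.47 to 3.41 CPM, and their part in these values was not tested.

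Tap1 and Tap2 encode the subunits of the peptide transporter. Tap1 read 14.7, 16.5 and 15.9 CPM in sham, 15.5, 13.4 and 18.9 at 10 min and 10.8, 15.9 and 17.7 at 1 h. Tap1 then read 17.2, 9.14 and 16.6 at 6 h, 14.7, 17 and 24.2 at 24 h and 39.97, 39.1 and 38.1 at 72 h. Tap1 overlapped sham up to 24 h and was highest at 72 h. Tap2 read 31.4, 29.7 and 30.7 CPM in sham, 28.6, 24.8 and 29.3 at 10 min and 25.9, 31.2 and 34.2 at 1 h. Tap2 then read 23.2, 19.95 and 25.6 at 6 h, 23.4, 27.2 and 24.2 at 24 h and 24.4, 24.9 and 23.3 at 72 h. At 72 h every Tap1 library lay above sham and every Tap2 library below it. All Tap2 libraries at 10 min, 6 h and 24 h also lay below sham, those at 10 min without a call.

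Tap1 rose by 1.31 ± 0.22 at 72 h (edgeR adjusted p = 6.21e-05). Tap2 was lower at 6 h (-0.42 ± 0.11, edgeR adjusted p = 0.00971), 24 h (-0.29 ± 0.11, adjusted p = 0.0395) and 72 h (-0.34 ± 0.11, adjusted p = 0.0116). The Tap2 call at 24 h was lost without any one sham library, without 24 h replicate 1 or 3, on plain library totals and with limma on FPKM. At 72 h its sign depended on the scaling, since Tap2 came out at 0.25 on plain library totals, where the median of all genes was 0.61. Tap1 and the antisense gene Psmb9 share 3.9% of the exon bases of Tap1.

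Tapbp encodes tapasin, which bridges the transporter to empty class I molecules. It read 80.6, 82.2 and 88.2 CPM in sham, 71.7, 78 and 75.1 at 10 min and 70.8, 81.7 and 86.4 at 1 h. Tapbp then read 67.5, 59.3 and 65 at 6 h, 68, 75 and 73.2 at 24 h and 126, 113 and 118 at 72 h. All 10 min, 6 h and 24 h libraries lay below sham, those at 10 min without a call, and all 72 h libraries above it. The change was -0.39 ± 0.09 at 6 h (edgeR adjusted p = 0.0031), -0.22 ± 0.09 at 24 h without a call (adjusted p = 0.0528) and 0.51 ± 0.09 at 72 h (adjusted p = 4.89e-05). Its exons share 4.1% of their bases with Zbtb22 on the same strand.

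Nlrc5 (chr8:94434356-94527272), the class I transactivator, read 2.93, 4.51 and 6.09 CPM in sham, 4.36, 3.91 and 5.08 at 10 min and 4.25, 6.04 and 5.66 at 1 h. Nlrc5 then read 7.45, 3.54 and 4.95 at 6 h, 3.88, 3.93 and 6.91 at 24 h and 13.3, 12.9 and 14.3 at 72 h. Groups up to 24 h overlapped sham, and the 72 h libraries stood apart from all of them. Its rise at 72 h was 2.98-fold (1.57 ± 0.27, edgeR adjusted p = 6.07e-05). Where Ciita was called at 24 h, Nlrc5 was not (0.1 ± 0.28, adjusted p = 0.79); the difference between the 2 genes was not tested.

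**Figure D3:**
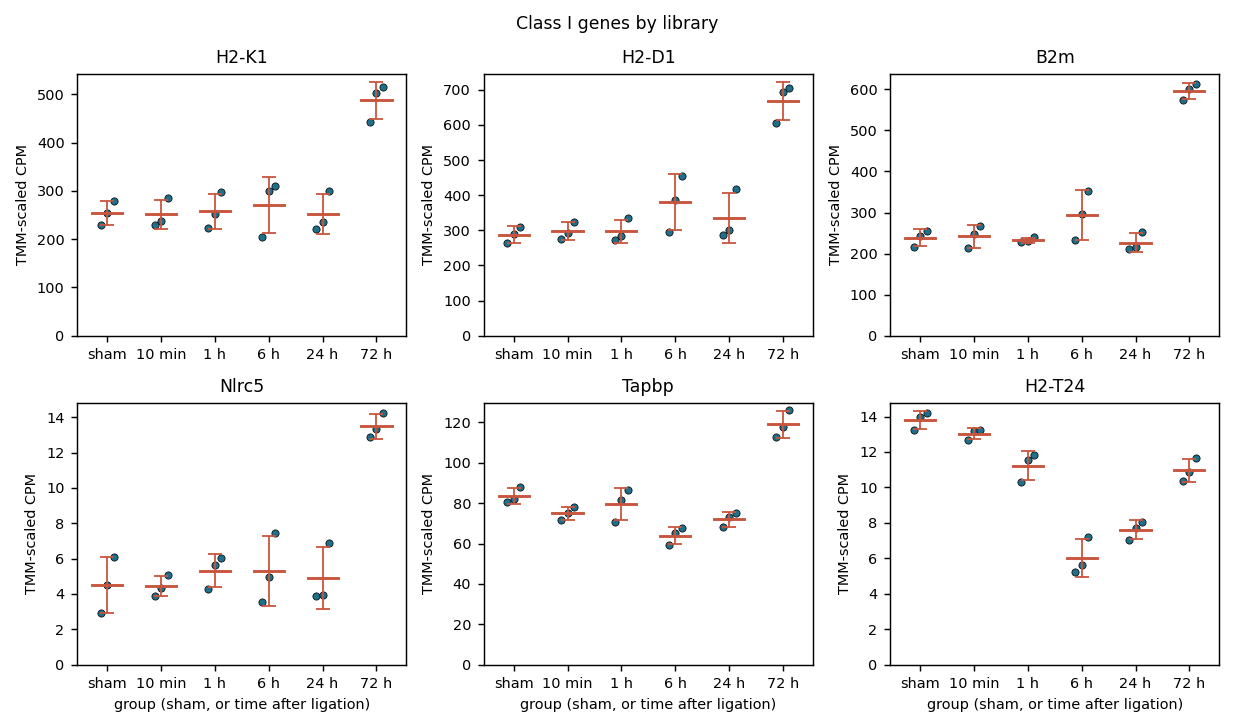
Each point is 1 library, lines and bars are the mean and SD of 3 libraries, and the y axes give TMM-scaled CPM for 6 class I genes in sham and at 5 times after ligation. H2-K1, H2-D1, B2m and Nlrc5 stand apart at 72 h only, Tapbp is below sham at 6 h and above it at 72 h, and H2-T24 is lowest at 6 h.

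Among the nonclassical class I genes, those of the T and M regions differed from one another. H2-T24 had 13.2, 14 and 14.2 CPM in sham. Its 10 min libraries (12.68 to 13.23 CPM) lay just below the lowest sham library (13.25), and those at 1 h (10.3 to 11.8) further below, both without a call. H2-T24 then read 7.21, 5.22 and 5.59 at 6 h and 8.07, 7.04 and 7.73 at 24 h, below sham in all 6 libraries (-1.2 ± 0.12 and -0.86 ± 0.12, edgeR adjusted p = 3.63e-06 and 3.02e-05). At 72 h it read 11.7, 10.4 and 10.9 CPM (-0.33 ± 0.12, adjusted p = 0.0178), a call lost without sham replicate 3 or 72 h replicate 2 and a sign that flipped on plain library totals (0.25, not called) and with limma on log2(FPKM + 1) (0.22, limma adjusted p = 0.0215) or log2(FPKM + 0.1) (0.25, limma adjusted p = 0.0322). H2-T23, whose Qa-1 product is a ligand of inhibitory natural killer receptors, read 46.8 ± 4.98 CPM in sham, 34.1 ± 2.29 at 24 h and 76.2 ± 8.43 at 72 h (SD, n = 3). It was lower at 24 h (-0.46 ± 0.13, edgeR adjusted p = 0.00816) and higher at 72 h (0.7 ± 0.13, adjusted p = 8.98e-05), with the 24 h call absent on plain library totals.

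H2-M3, which presents formylated peptides, read 6.72, 7.21 and 6.8 CPM in sham, 4.23, 4.5 and 5.06 at 6 h and 13.3, 13.4 and 13.4 at 72 h. These 3 groups did not overlap, and H2-M3 was lower at 6 h (-0.59 ± 0.14, edgeR adjusted p = 0.00438) and higher at 72 h (0.95 ± 0.13, adjusted p = 4.09e-06). Its 10 min libraries (5.16 to 6.53 CPM) also lay below sham, without a call. H2-T22, a ligand of some gamma delta T cells, rose from 21 ± 2.06 CPM to 40.5 ± 3.7 at 72 h (SD, n = 3, edgeR adjusted p = 1.33e-05). H2-T10, annotated as a polymorphic pseudogene, was at 2.19 ± 0.827 CPM in sham and 2.32 ± 0.565 at 72 h without a call. The pseudogene H2-T-ps had 4, 3 and 3 counts in sham, or 0.202, 0.156 and 0.133 CPM, 0.187, 0.21 and 0.223 at 10 min, 0.145, 0.178 and 0.0583 at 1 h and 0.417, 0.287 and 0.213 at 6 h. It reached 0.432, 0.743 and 0.825 at 24 h and 1.32, 1.83 and 1.21 at 72 h (3.12 ± 0.39, adjusted p = 1.26e-06); it shares 5% of its 100-base words with H2-Q1.

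Of the tested Q genes, H2-Q10 was called higher at 72 h, H2-Q6 was called lower, and H2-Q4, H2-Q5 and H2-Q7 were not called. H2-Q4, whose promoter above carries the kappa B, X box and Y box matches, read 44.1, 53.8 and 48.5 CPM in sham and 44.3, 41.9 and 40.7 at 72 h, overlapping and not called (-0.21 ± 0.18, edgeR adjusted p = 0.33). H2-Q6, of the Qa-2 group, read 17.3, 30.3 and 21.5 CPM in sham and 12.6, 13.3 and 11.6 at 72 h (-0.88 ± 0.35, adjusted p = 0.0363), a call lost without sham replicate 2 or 3 or any one 72 h library, and on plain library totals. H2-Q5, annotated as a polymorphic pseudogene like H2-T10, and H2-Q7 were not called at any time. They had 4.4 ± 1 and 13.6 ± 3.09 CPM in sham against 3.15 ± 0.6 and 14.6 ± 2.72 at 72 h (SD, n = 3). These genes are close copies: H2-Q5, H2-Q6 and H2-Q7 share 12.9%, 10.1% and 12.7% of their 100-base words with other genes of the region, so their counts are uncertain where reads could be split between them.

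H2-Q10, known as the gene of a secreted class I molecule of the liver, followed another course. It read 0.0506, 0.415 and 0.311 CPM in sham, 0.809, 0.546 and 0.279 at 10 min and 0.821, 0.296 and 0.991 at 1 h. H2-Q10 then read 8.34, 3.11 and 2.72 at 6 h, 4.36, 1.7 and 19.2 at 24 h and 1.8, 1.89 and 2.42 at 72 h. All libraries from 6 h on lay above all libraries up to 1 h, and the spread within 6 h and 24 h was wide. The log2 change was 4.14 ± 0.95 at 6 h, 4.97 ± 0.93 at 24 h and 2.94 ± 0.98 at 72 h (edgeR adjusted p = 0.00511, 7.62e-04 and 0.0156).

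Single libraries set the size of those values. The mean fell from 8.41 to 3.03 CPM without 24 h replicate 3, which took the log2 change to 3.5, and from 4.72 to 2.91 without 6 h replicate 1; the 72 h call was lost without sham replicate 1, which held 1 count. In the same libraries, in the same order, the 6 neutrophil markers summed to 709, 253 and 95.3 CPM at 6 h and 166, 42.7 and 707 at 24 h, against 3.03 to 4.3 in sham and 59.1 to 73 at 72 h. The 4 monocyte markers summed in that order to 56.5, 25 and 18 CPM at 6 h and 103, 69.4 and 254 at 24 h. They were at 2.09 to 3.89 in sham and 144 to 185 at 72 h. The libraries with the most H2-Q10 at 6 h and at 24 h were those with the most of both sets of markers. The 6 h one, replicate 1, also held 151 CPM of atrial markers. At 6 h 6 of 6 neutrophil markers were called higher (16.3% of all genes) and at 72 h 5 of 6 (34.2%), and Ly6g was at 0 counts in sham. The part of any of these cells in the H2-Q10 values was not tested. H2-Q10 shares 6.4% of its 100-base words with H2-Q7.

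**Figure D4:**
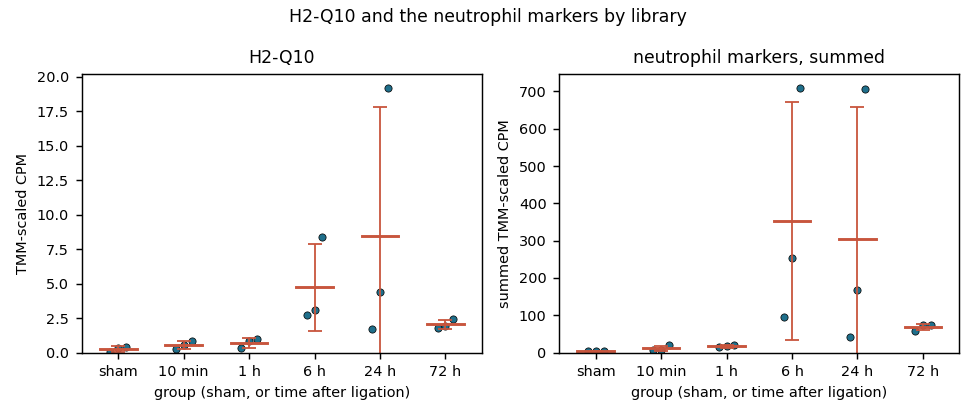
Points are libraries and lines with bars are the mean and SD of 3 libraries, in TMM-scaled CPM, for H2-Q10 and for the sum of 6 neutrophil markers. H2-Q10 peaks at 19.2 CPM in the same 24 h library in which the markers reach 707.

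The remaining members were low. The class I pseudogene H2-K2 read 4.97 ± 0.425 CPM in sham and 4.43 ± 1.17 at 72 h (SD, n = 3) and was not called at any time. H2-M5, H2-M6-ps and H2-Q1 did not pass the filter, with 49, 62 and 37 counts over the 18 libraries and no library above 0.541 CPM. H2-Ke6, of neither class, had 0.555 ± 0.0899 CPM in sham and fell to 0.166 ± 0.034 at 72 h (-1.7 ± 0.52, edgeR adjusted p = 0.00734), a call lost on plain library totals. It shares 92% of its 100-base words with the overlapping gene Gm20427, so its counts are uncertain.

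Between consecutive times, 0 members differed from 10 min to 1 h (0.307% of all genes; 1 at an unadjusted p under 0.05 and 0 by DESeq2). From 1 h to 6 h 6 members were called, 1 higher and 5 lower, beside 24.5% of all genes (14.5% higher and 10% lower), and that count was 3 without 1 h replicate 2 and 1 without 1 h replicate 3. From 6 h to 24 h 13 were called, 11 higher and 2 lower, 8 of the higher ones in class II, beside 27.8% of all genes (14.2% higher and 13.7% lower). When only the 6 libraries of that comparison were fitted, the count was 4. From 24 h to 72 h 23 were called, 21 higher and 2 lower, with 10 of 12 class II and 11 of 19 class I genes higher, beside 50.5% of all genes (24.4% higher and 26.1% lower). On plain library totals the last 2 comparisons gave 16 higher and 0 lower, and 27 higher and 0 lower, with the median of all genes at 0.33 and 0.36. For 72 h against 6 h directly, 26 were called, beside 63% of all genes. The largest of the 5 changes against sham fell at 72 h in all 12 class II genes, and among the 14 class I genes that differed over the 6 groups by edgeR's F test (78.4% of all genes did) it fell at 72 h in 10, at 24 h in 2 and at 6 h in 2.

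Levels of different genes are compared per length, as FPKM (fragments scaled for gene length and for depth, here on the TMM scale). In sham the order was B2m (277 ± 24.1, SD, n = 3), H2-D1 (112 ± 9.34), H2-K1 (97.8 ± 9.58), Cd74 (61.5 ± 4.26), H2-Eb1 (39.5 ± 0.528), H2-Ab1 (37.2 ± 2.8), Tapbp (25.4 ± 1.21), H2-Q4 (18.8 ± 1.88) and H2-Aa (18.6 ± 1.12). H2-D1 and H2-K1, H2-Eb1 and H2-Ab1, and H2-Q4 and H2-Aa were neighbours within the spread of their libraries. Ciita (0.233 ± 0.0296) and Nlrc5 (0.531 ± 0.186) were low on the same scale. At 72 h B2m (693 ± 23.7), H2-D1 (259 ± 21.2), H2-K1 (187 ± 14.8) and Cd74 (169 ± 15.3) still led, with H2-K1 and Cd74 now within their spread, and H2-Ab1 (132 ± 13.6), H2-Eb1 (119 ± 13.1) and H2-Aa (62.9 ± 6.21) followed, ahead of Tapbp (36.1 ± 2.07).

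Summed over members, class I transcripts went from 999.95, 1187 and 1118 CPM in the sham libraries to 1439, 947 and 1298 at 6 h, 962, 1014 and 1281 at 24 h and 2269.97, 2021 and 2222 at 72 h. Class II transcripts went from 231, 246 and 249 CPM to 212, 171 and 173 at 6 h, 261, 346 and 289.8 at 24 h and 820.2, 688 and 805 at 72 h. The class I sums at 6 h and 24 h spanned the sham values, whereas the class II sums were below sham at 6 h and above it at 24 h and 72 h without overlap. The ratio of the class I to the class II sum, read across groups only, was 4.55 ± 0.256 in sham, 6.6 ± 0.985 at 6 h, 3.68 ± 0.743 at 24 h and 2.82 ± 0.0999 at 72 h (SD, n = 3). Within class I, H2-K1, H2-D1 and B2m made up 70.9 ± 0.379% of the summed CPM in sham and 80.6 ± 0.664% at 72 h, with no overlap.

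**Figure D5:**
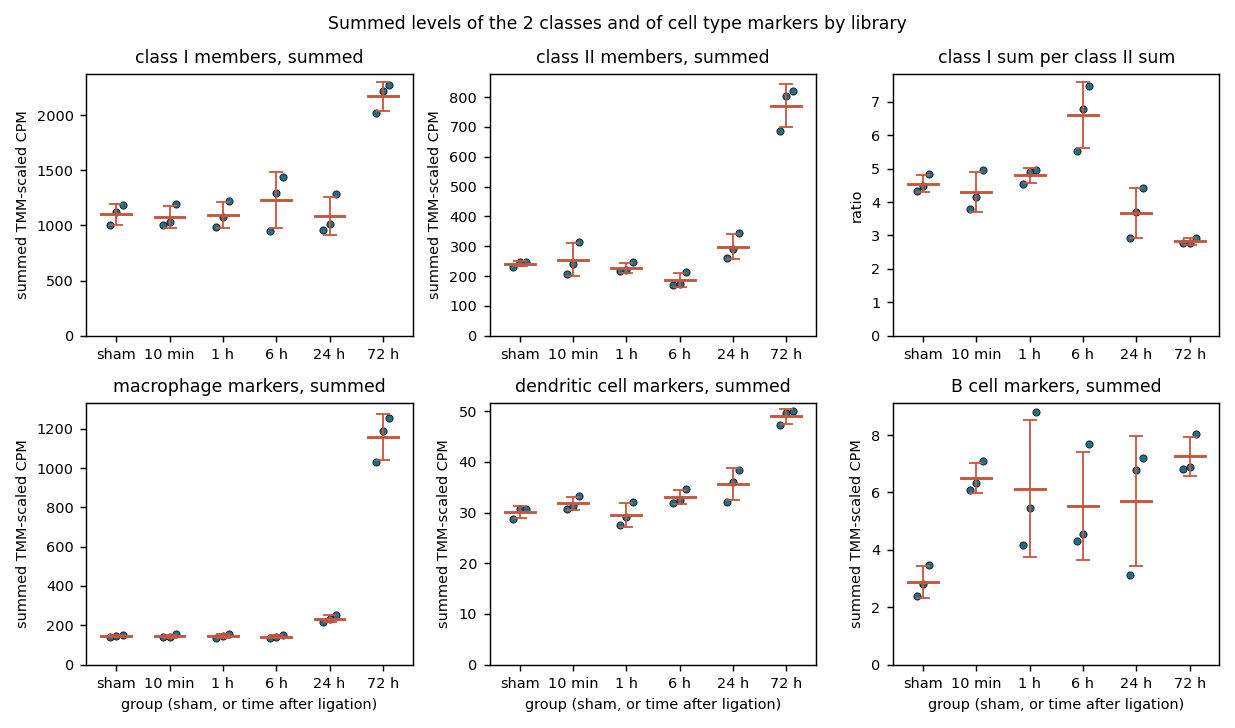
Each point is 1 library, lines and bars are the mean and SD of 3 libraries, and the panels give the summed TMM-scaled CPM of class I, class II and the markers of 3 cell types, with the ratio of the 2 classes as the third panel. The class II sum and the macrophage markers are both highest at 72 h. The markers rise to 1031 to 1256 CPM from 138 to 151 in sham, a larger factor than that of the class II sum.

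Cell type markers moved in the same libraries. The 6 macrophage markers summed to 138 to 151 CPM in sham, 136 to 151 at 6 h, 218 to 251 at 24 h and 1031 to 1256 at 72 h, with 6 of 6 called higher at 72 h and none at 0. Per unit of that sum, class II transcripts stood at 1.67 ± 0.0334 in sham, 1.3 ± 0.0961 at 6 h, 1.28 ± 0.187 at 24 h and 0.665 ± 0.024 at 72 h (SD, n = 3). The class II sum thus rose by less than the macrophage sum did. H2-Aa, H2-Ab1, H2-Eb1 and Cd74 made up 94.8% of the class II sum in sham and 92.4% at 72 h. Single members differed, with log2 changes at 72 h from 1.46 for Cd74 to 2.94 for Ciita among those named above. At 6 h, when class II chains were lower, 3 of the 6 macrophage markers were higher and 1 was lower than sham. Over all genes 16.3% were higher and 12.2% lower at 6 h, and the macrophage sum overlapped sham. The 7 dendritic cell markers summed to 28.7 to 30.8 CPM in sham, 31.9 to 34.7 at 6 h and 47.3 to 50.1 at 72 h, with 5 called higher and 2 lower at 72 h, while the cardiomyocyte sum fell to 14597 to 19225. Fibroblast markers summed to 1867 to 2078 CPM in sham, 996 to 1289 at 24 h and 4298 to 5286 at 72 h, with 4 of 5 called higher and 1 lower at 72 h. Endothelial markers summed to 953 to 1057 in sham and 567 to 773 at 72 h, with 4 of 5 called lower. That fall is relative to the other genes, since the median of all genes at 72 h was 0.61 on plain library totals. Over all genes 34.2% were called higher and 32.2% lower at 72 h. Class I, which almost every nucleated cell makes, was measured in the same libraries. Monocyte markers (4 of 4 called higher) summed to 2.09 to 3.89 CPM in sham and 144 to 185 at 72 h. T cell markers summed to 1.55 to 2.9 and 5.58 to 8.18, and natural killer cell markers to 0.444 to 1.11 and 1.67 to 3.18. Only 3 of 6 T cell markers passed the filter on low counts, with 2 called higher. Of the 5 natural killer cell markers 1 passed, and it was called higher. The part of any of these cells in the MHC values was not tested.

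The partners of the 2 pathways came from lists chosen by function. Of 7 genes that process antigen for class II or regulate its display, 5 were called higher at 6 h (16.3% of all genes), 6 at 24 h (23.7%) and 7 at 72 h (34.2%), with a median log2 fold change of 3.31 at 72 h against 0.03 for all genes. Ctss, the cathepsin that trims the invariant chain, went from 12.8 ± 1.22 to 578 ± 74 CPM at 72 h (5.49 on the log2 scale), Lgmn, the asparaginyl endopeptidase legumain, from 70.7 ± 2.38 to 598 ± 27.8 (3.08), and the cathepsin gene Ctsb from 454 ± 14.5 to 2956 ± 245 (2.7; SD, n = 3). Of 10 class I partners, 4 rose and 1 fell at 72 h (median 0.18), a share of risers near the 34.2% of all genes. Among them were the loading chaperones Pdia3 (1.67) and Calr (0.84) and the immunoproteasome subunit Psmb8 (19.3 ± 1.28 CPM in sham and 43.6 ± 0.479 at 72 h). At 6 h 0 rose and 4 fell, beside 16.3% and 12.2% of all genes. At 24 h 2 of the 10 rose and 5 fell, beside 23.7% and 20.2% of all genes.

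Of 8 co-stimulatory and checkpoint ligands 6 were tested, and 4 rose and 0 fell at 72 h, beside 34.2% and 32.2% of all genes. Cd80, which shares its receptors with Cd86, was at 0.25 ± 0.175 CPM in sham and 4.36 ± 0.516 at 72 h (4.05 on the log2 scale), and Cd40 (1.49) and Tnfsf9 (1.56) rose with it. Of 13 tested regulators of MHC transcription, 7 rose and 4 fell at 72 h, the latter count near the 32.2% of all genes that fell. Irf8 rose from 7.87 ± 0.466 to 59.6 ± 5.02 CPM (2.92). Nfyc, a subunit of the factor that binds the Y box, fell by 0.57 on the log2 scale and the interferon gamma receptor gene Ifngr2 by 0.71. Lower calls at 72 h in these lists, like those of members, hold relative to the other genes of these libraries only. On plain library totals the median of all genes was 0.61 at that time. Ifng, the gene of interferon gamma, did not pass the filter on low counts, and its mean was at most 0.0732 CPM in any group.

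Genes that lie between the members were set beside them. Of the tested members, 27 lie on chromosome 17 between bases 33915899 and 37274484 (GRCm38, GENCODE M21), from Tapbp to H2-M3, among 103 other tested genes of the same interval. At 72 h 18 of the 27 members there were higher and 4 lower, with a median log2 fold change of 0.95, and of the 103 others 36 were higher and 26 lower, with a median of 0.20. Over all genes tested 34.2% were higher and 32.2% lower at 72 h, close to the share of the 103 that were higher. At 6 h the members had 2 higher and 7 lower calls, and the others 21 higher and 6 lower, where all genes had 16.3% and 12.2%. The members outside that interval are B2m on chromosome 2, Nlrc5 on chromosome 8, Cd86 and Ciita on chromosome 16 and Cd74 on chromosome 18; all 5 were higher at 72 h.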

How the data were processed

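Per the submitters' processing notes, reads were trimmed with cutadapt 1.18, aligned to mm10 with HISAT2 2.1.0 and counted with featureCounts; the use of strand and the treatment of reads with several matches are not given in the sources used here. The deposited files hold whole-number counts per Ensembl gene and FPKM values made from the same counts. The deposited FPKM columns of 6 h replicates 2 and 3 matched the counts of replicates 3 and 2, and were exchanged for the FPKM alternatives. Symbols and coordinates came from GENCODE M21 (30489 IDs matched, 94 did not).

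Groups followed the labels. Counts were filtered with filterByExpr (14272 genes removed), scaled by TMM (factors 0.825 to 1.43) and fitted over all 18 libraries with edgeR 4.0.16 (glmQLFit, robust) in R 4.3.3, without covariates. Comparisons were each time against sham and each time against the preceding one. Alternatives were other scaling, filters, DESeq2 1.42.0, limma 3.58.1 on log2(FPKM + 1) or log2(FPKM + 0.1), a replicate block, only the 6 libraries compared, and each library left out. Given library by library are H2-K1, H2-D1, B2m, Tap1, Tap2, Tapbp, Nlrc5, H2-Aa, H2-Ab1, H2-Eb1, H2-DMa, H2-DMb1, Cd74, Ciita and Cd86, and in each class the 2 further members with the largest change at 72 h; others are given where a call or a copy number doubt bears on them and were chosen after their values were seen. Each partner list is represented by 3 genes, those of lowest adjusted p at 72 h, with Ifng added. Members and lists were chosen with earlier results of these data known, and 100-base words came from GENCODE transcripts. The floor of 3 counts covers counting error only.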

Additional observations from a re-analysis of the deposited data

Results flagged for a closer look

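Of the members, 6 were called lower than sham at one time and higher at a later one. The lower call was at 6 h for H2-Ab1, H2-Aa, H2-Eb1, H2-M3 and Tapbp and at 24 h for H2-T23, and all 6 were called higher at 72 h. The log2 difference of 72 h against 6 h was 2.38 for H2-Ab1, 2.27 for H2-Aa, 2.03 for H2-Eb1, 1.54 for H2-M3, 1.02 for H2-T23 and 0.9 for Tapbp. The 6 genes were picked by those calls, which used the same libraries, so these differences are a description and carry no test. In each of the 6 genes, all 3 libraries at 72 h lay above all 3 at 6 h.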

How the results depend on the processing

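Over the alternatives, the number of members called was 0 at 10 min and 1 h in all 27, 6 to 10 at 6 h, 8 to 14 at 24 h and 21 to 28 at 72 h. Leaving out 1 library at a time gave 6 to 10, 10 to 14 and 25 to 27 at these 3 times, 9 to 13 for 24 h against 6 h, and 1 to 8 for 6 h against 1 h. Fitting only the 6 libraries compared gave 3 for 6 h against 1 h and 4 for 24 h against 6 h. Tap2 at 72 h turned to 0.25 on plain library totals, 0.22 with limma on log2(FPKM + 1) and 0.24 on log2(FPKM + 0.1), none of them called. H2-T24 at 72 h, for which the alternatives were chosen after seeing the data, like those of the other members not listed in advance, turned to 0.25, 0.22 and 0.25 under the same 3, the last 2 called higher by limma (adjusted p = 0.0215 and 0.0322). Of the 90 called changes of single members (against sham or the time before), 59 stayed called in all alternatives run. On plain library totals the members split into 1 higher and 8 lower at 6 h, 11 and 1 at 24 h, and 23 and 0 at 72 h, with the median of all genes at -0.12, 0.20 and 0.61.

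Replicate numbers did not pair the libraries: in 0 of 9 comparisons did every same-numbered pair correlate above 0.1. With the replicate number as a block, the members called were 8 at 6 h, 12 at 24 h and 27 at 72 h. Depth limits H2-Oa and H2-Eb2, with at most 1 count per sham library, and H2-M5, H2-M6-ps and H2-Q1, which were not tested.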
